A study of Mus musculus with 14 samples.

Results

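The receptors for TGF-beta and the SMAD proteins that carry its signal to the nucleus were described here as a set of 10 genes out of the 30284 genes in the tables. They were chosen by name for their role, with earlier results of these data known. The set holds the receptors Tgfbr1, Tgfbr2 and Tgfbr3, the receptor-activated SMADs Smad2 and Smad3, the shared partner Smad4, and the inhibitors Smad7, Ski, Skil and Smurf2. The data are messenger RNA sequencing of regulatory T cells, CD4 T cells that restrain immune responses, sorted from the spleen of C57/B6 mice as Foxp3+YFP+ cells. The 4 control units came from mice with wild-type alleles of Tln1, the gene of the integrin activator talin-1, and the 3 knockout-labelled units came from mice whose Tln1 alleles were both floxed. All of the mice, controls included, carried 1 Foxp3 allele with Cre and 1 wild-type Foxp3 allele, so that Cre is driven from the Foxp3 locus. A library held RNA of 1 or 2 animals, and the labels do not state which Tln1 exons lie between the loxP sites. The comparison asks what these cells express when both Tln1 alleles are floxed, and the loss of talin protein was not measured here.

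TGF-beta brings together the type II receptor (Tgfbr2) and the type I receptor (Tgfbr1), and the activated type I receptor phosphorylates SMAD2 and SMAD3, which join SMAD4 and bind DNA. Smad7 and Skil are themselves induced by the pathway and act against it, SMAD7 at the receptor and SKIL, like its relative SKI, on SMADs in the nucleus, while SMURF2 marks pathway proteins for degradation. In T cells the pathway supports Foxp3 expression and the integrin alpha E, and it depends on integrins that release TGF-beta from its latent form.

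Each unit joined 2 sequenced samples with the same first number in the title, and held between 12851425 and 56109143 estimated reads. Values are CPM, counts scaled to a common library size after TMM normalization. Tln1 itself gave no lower signal under the knockout label: it stood at 634, 543, 847 and 649 CPM in control units 1 to 4 and at 788, 901 and 1014 CPM in the knockout-labelled units 1 to 3, so the summed signal of this gene does not check the label. Foxp3 stood at 324 to 478 CPM in the controls and 370 to 514 CPM in the knockout-labelled units, so this defining gene was present in every unit. The summed level of 10 regulatory T cell markers was 4548 to 5208 CPM in the controls and 3714, 4009 and 2989 CPM in the knockout-labelled units 1 to 3. Of these 10 markers, 2 passed the test as lower and 0 as higher. On average Ikzf2 went from 1113 to 589 CPM, Il2ra from 706 to 373 CPM and Cd3e from 314 to 222 CPM, without overlap. Foxp3, Ctla4, Tnfrsf18, Cd3d, Cd4, Lat and Trac overlapped between the groups. Markers of other cells were higher in the knockout-labelled units. The sum of 10 B cell genes was 36.8 to 103 CPM in the controls and 402, 341 and 179 CPM in the knockout-labelled units 1 to 3, and that of 10 neutrophil granule genes was 1.95 to 15.5 CPM and 473, 267 and 1617 CPM. The sum of 10 monocyte and macrophage genes was 208 to 331 CPM against 685, 355 and 741 CPM, and that of 10 erythroid and platelet genes was 7.54 to 52.1 CPM against 259, 76.7 and 2899 CPM. The sum of 10 dendritic cell genes was 29.5 to 41.3 CPM against 111, 84.1 and 81.8 CPM. That of 10 cytotoxic lymphocyte genes was 38.8 to 49.3 CPM against 122, 88.9 and 63.8 CPM. Of these lists, 6 B cell, 9 neutrophil, 4 monocyte, 5 dendritic, 5 cytotoxic and 1 erythroid or platelet gene passed the test as higher. Over all genes tested, 7.07% passed as higher. No listed gene was at 0 in all controls. In bulk samples, fewer cells of a type and less RNA per cell cannot be told apart, and the part of these markers in the results below was not tested except where a value is given.

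All 10 genes passed the filter on low counts, and their levels differed little between the groups. Only Tgfbr3 passed edgeR's quasi-likelihood test at a false discovery rate of 0.05, as higher, which is 1 of 10 beside 13.6% of the 15775 genes tested (7.07% higher and 6.52% lower). Skil was the other gene with an unadjusted p under 0.05. The groups did not overlap for these 2 genes of 10, beside 30.8% of all genes tested. On average 4 of the 10 were higher and 6 lower, with a median log2 fold change of -0.10 against 0.06 over all genes, and the median size of the change was 0.17 against 0.39. For each of the 10 genes the 95% interval of the fold change excluded a 2-fold difference in either direction. These p-values measure the spread between units, which may be partly technical.

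**Figure D1:**
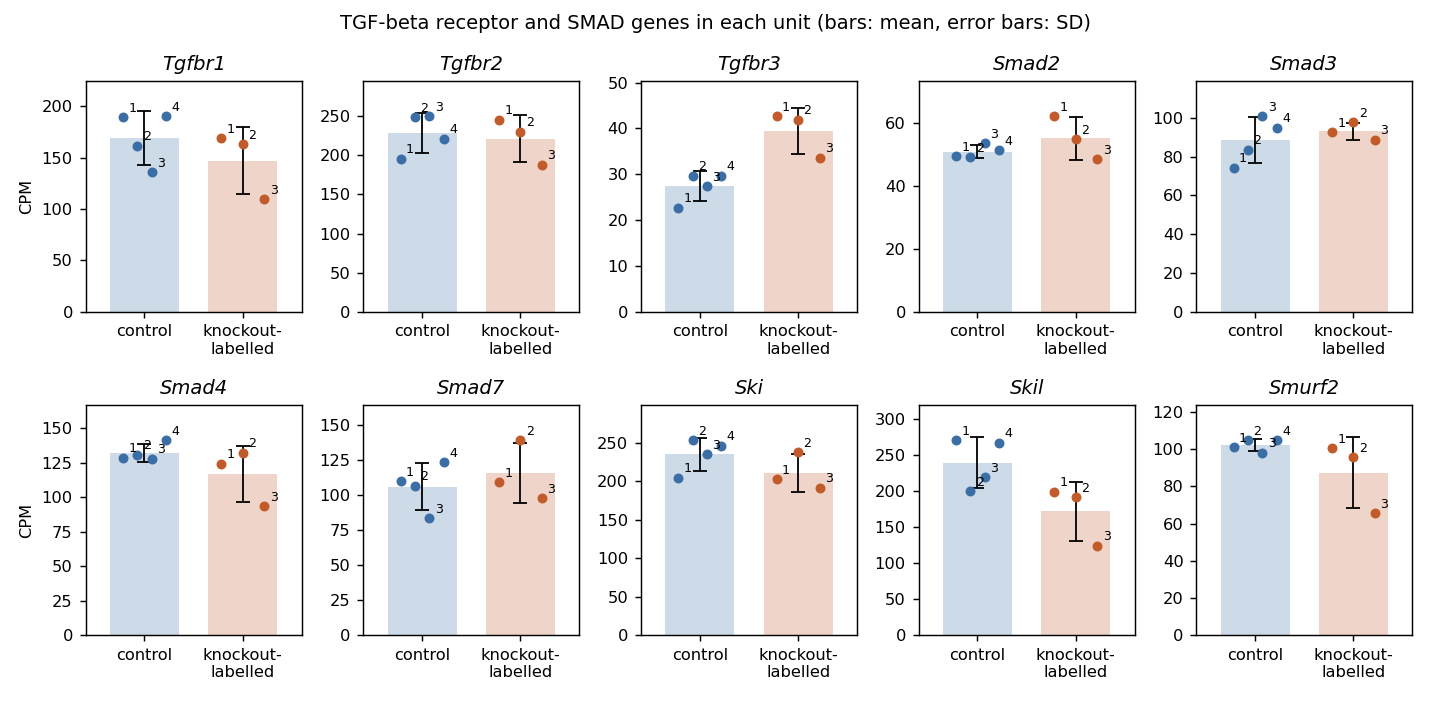
Level of each of the 10 genes in CPM (linear axis from 0) in the 4 control units (blue) and the 3 knockout-labelled units (orange). Points are units with their number, bars are means and error bars are SD. Tgfbr3 and Skil are the genes whose groups do not overlap, and knockout-labelled unit 3 is the lowest of the 7 units for 7 genes.

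Among the receptors, Tgfbr1, the type I receptor kinase (chromosome 4, 47353222 to 47414931, GRCm38, plus strand), stood at 189, 161, 136 and 190.2 CPM in control units 1 to 4 and at 169, 163 and 109 CPM in the knockout-labelled units 1 to 3. Control unit 3 and knockout-labelled unit 3 were the lowest of their groups, and the groups overlapped. The log2 fold change was -0.20 ± 0.18 (SE; 95% interval -0.61 to 0.20; edgeR adjusted p = 0.476).

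Tgfbr2, the type II receptor that binds the ligand (chromosome 9, 116084293 to 116175360, minus strand), stood at 196, 249, 250.03 and 221 CPM in the controls and 246, 230.0 and 188 CPM in the knockout-labelled units. The ranges covered each other, and the log2 fold change was -0.05 ± 0.14 (95% interval -0.37 to 0.27; edgeR adjusted p = 0.839).

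Tgfbr3, or betaglycan, is a co-receptor that presents the ligand and lacks kinase activity (chromosome 5, 107106570 to 107289629, minus strand). It stood at 22.7, 29.7, 27.4 and 29.7 CPM in control units 1 to 4 and at 42.7, 41.9 and 33.7 CPM in the knockout-labelled units 1 to 3. Every knockout-labelled unit was above every control unit, and unit 3 was the nearest to the controls. The mean rose from 27.4 ± 3.28 CPM (SD, n = 4) to 39.4 ± 5.002 CPM (SD, n = 3), a log2 fold change of 0.53 ± 0.15 (SE; 95% interval 0.19 to 0.86; 1.44-fold; edgeR adjusted p = 0.0468). It was the least abundant of the 10 genes, with 289 estimated reads in control unit 1 and 1928 in knockout-labelled unit 1. The call lay close to the threshold. It was kept in 7 of 23 alternative fits and in 1 of the 7 that leave out a unit, the one without knockout-labelled unit 3, where the log2 fold change was 0.63 (adjusted p = 0.0441). The B cell sum followed the same order among the knockout-labelled units, 402, 341 and 179 CPM. So did the cytotoxic lymphocyte sum (122, 88.9 and 63.8 CPM) and the dendritic cell sum (111, 84.1 and 81.8 CPM, with units 2 and 3 close). The neutrophil, monocyte and erythroid sums did not follow it and were highest in unit 3, at 1617, 741 and 2899 CPM. The part of any of these cells in the rise was not tested.

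The receptor-activated SMADs did not pass the test. Smad2 (chromosome 18, 76241580 to 76310963, plus strand) stood at 49.5, 49.1, 53.7 and 51.4 CPM in the controls and 62.2, 55.0 and 48.5 CPM in the knockout-labelled units. Units 1 and 2 were above all controls and unit 3 was below them, so the groups overlapped (log2 fold change 0.12 ± 0.13, edgeR adjusted p = 0.562). Smad3 (chromosome 9, 63646767 to 63757994, minus strand) stood at 74.2, 83.7, 101 and 94.9 CPM in the controls and 92.6, 97.8 and 88.7 CPM in the knockout-labelled units. All 3 of these lay within the control range (0.07 ± 0.13, edgeR adjusted p = 0.744).

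Smad4, the partner shared by all branches (chromosome 18, 73639009 to 73703780, minus strand), stood at 129, 131, 128 and 141 CPM in the controls and 124, 132 and 93.7 CPM in the knockout-labelled units. Unit 3 was below the rest and units 1 and 2 were near the control levels. The log2 fold change was -0.18 ± 0.14 (95% interval -0.49 to 0.13; edgeR adjusted p = 0.411), and -0.04 without knockout-labelled unit 3.

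Of the inhibitors, Smad7 (chromosome 18, 75367529 to 75395935, plus strand) stood at 109.9, 106, 83.6 and 124 CPM in the controls and 109, 139 and 97.9 CPM in the knockout-labelled units. Knockout-labelled unit 2 was the highest of the 7 and control unit 3 the lowest (log2 fold change 0.12 ± 0.17, edgeR adjusted p = 0.645). Ski (chromosome 4, 155154075 to 155222592, minus strand) stood at 205, 254, 235 and 246 CPM in the controls and 202.7, 238 and 192 CPM in the knockout-labelled units, with overlap (-0.16 ± 0.13, edgeR adjusted p = 0.456).

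Skil, which encodes SnoN (chromosome 3, 31095058 to 31122577, plus strand), stood at 271, 200.03, 219 and 268 CPM in control units 1 to 4 and at 199.56, 192 and 125 CPM in the knockout-labelled units 1 to 3. The groups did not overlap, but control unit 2 and knockout-labelled unit 1 were nearly equal, and unit 3 lay far below the rest. The log2 fold change was -0.48 ± 0.19 (95% interval -0.89 to -0.06; unadjusted p = 0.0285, edgeR adjusted p = 0.111), so the difference did not pass. Smurf2, a ubiquitin ligase (chromosome 11, 106820066 to 106920715, minus strand), stood at 101, 105, 98.2 and 105 CPM in the controls and 101, 95.8 and 65.7 CPM in the knockout-labelled units. Only unit 3 lay far from the control values (-0.23 ± 0.15, edgeR adjusted p = 0.337; -0.06 without that unit).

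Knockout-labelled unit 3 was the lowest of the 7 units for 7 of the 10 genes: Tgfbr1, Tgfbr2, Smad2, Smad4, Ski, Skil and Smurf2. Over all genes tested it was the lowest unit for 22.02%. It was also the unit with the lowest regulatory T cell sum (2989 CPM) and the highest neutrophil (1617 CPM) and erythroid (2899 CPM) sums. The sum of 10 heat shock and dissociation stress genes was also highest there, at 3782 CPM against 1752 to 2846 CPM in the other 6 units, and 1 of these genes passed the test as higher. Without it, the median size of the log2 fold change over the 10 genes was 0.10, against 0.33 over all genes, and the change of Skil was -0.29 (edgeR adjusted p = 0.306). The part of the other cell types and of the stress genes in these low values was not tested.

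**Figure D2:**
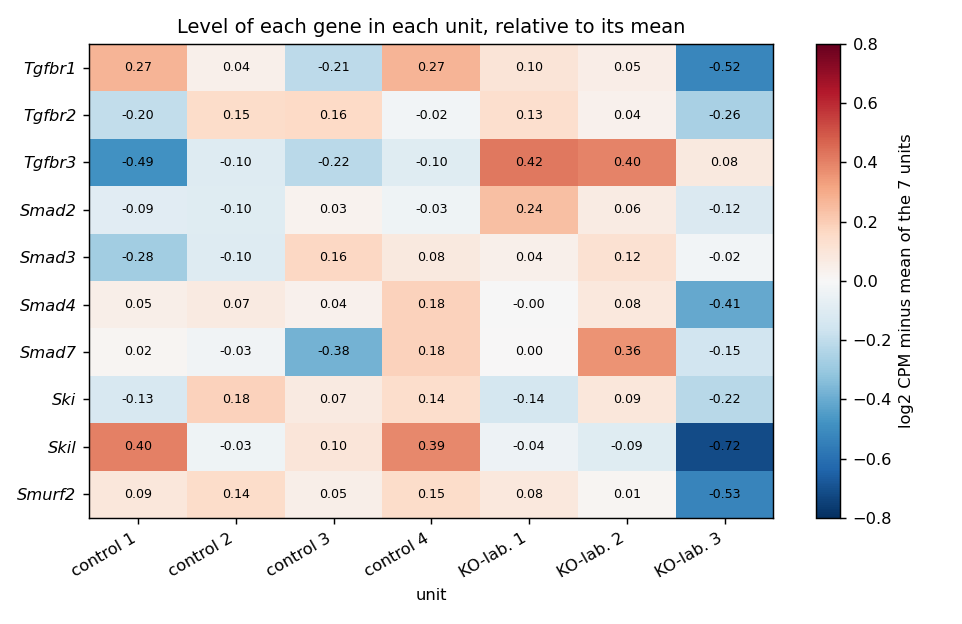
Heat map of the log2 CPM of each of the 10 genes in each unit (KO-lab. is knockout-labelled), minus the gene's mean over the 7 units. Red is above and blue below the mean; the column of knockout-labelled unit 3 is blue for every gene but Tgfbr3, and deepest for Skil.

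Some of the genes also varied together between units. Across the 7 units the log2 CPM of Smad4 and Smurf2 had a Pearson r of 0.96, and Tgfbr1, Smad4, Skil and Smurf2 had pairwise r from 0.85 to 0.96. Each of these genes was lowest in knockout-labelled unit 3, and r without that unit was not computed. Other pairs had lower r, such as Tgfbr1 with Tgfbr2 (r = 0.22) and Tgfbr3 with Skil (r = -0.49). The points share library depth and unit composition, and the values are descriptions. Among 10068 protein-coding genes with a mean of at least 5 CPM, the pattern most like Smurf2 was that of Tigar (r = 0.995), and those most like Skil were Secisbp2l and Mysm1 (both r = 0.99). Zcchc9 and Pan3 were most like Tgfbr1, and Dapk1 (r = 0.98) and Enc1 (r = 0.97) were most like Tgfbr3. Foxp1 (r = 0.99) was among the 2 most like Smad4. The genes most like Tgfbr2, Smad2, Smad3, Smad7 and Ski are not named. Their highest r ran from 0.93 for Smad2 to 0.98 for Tgfbr2.

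The size and sign of several of these differences depended on how GC content and transcript length were treated. Genes with a GC content under 45% had a median log2 fold change of -0.35, and those of 52% or more one of 0.31; the 3 low-GC genes Tgfbr1, Smad2 and Skil had a median of -0.20 and the 4 high-GC genes Tgfbr2, Smad3, Smad7 and Ski one of 0.01. An offset that takes out each unit's trend on GC and length moved the median of all genes by -0.39 and the share of higher genes among the calls from 52.1% to 23.9%. With it, Smad4 (-0.52, adjusted p = 0.0412) and Ski (-0.68, adjusted p = 0.0200) passed edgeR's test as lower and Tgfbr3 did not pass (0.18, adjusted p = 0.520). Relative to the shift of all genes these values were -0.14 for Smad4, -0.29 for Ski and 0.56 for Tgfbr3. The same offset with each unit's trend centred on its median was added after those values were seen. It moved the median of all genes by -0.03, and the share of higher genes among the calls was 64.1%. With it Smad2 passed as higher (0.45, adjusted p = 0.0364), Tgfbr3 was at 0.54 (adjusted p = 0.0552), Skil at 0.02 and Tgfbr1 at 0.32. An offset for effective transcript length gave 0.54 for Smad4 (adjusted p = 0.0443) and 0.60 for Smad7 (adjusted p = 0.0335), both as higher. The effective lengths were the same in every sample, so this offset varies between units only with the estimated split between transcripts. A Smad4 transcript of 430 bases averaged 5.42 and 22.6 TPM in the 2 groups, and a Smad7 transcript of 769 bases 9.53 and 21.8 TPM. The longest ones went from 33.7 to 25.8 TPM (Smad4) and from 19.9 to 17.0 TPM (Smad7). No gene of the 10 passed under all 3 offsets, and Smad4 passed in opposite directions under the first and the last. With the centred offset Smad4 was at -0.17 (edgeR adjusted p = 0.395), beside -0.18 with no offset.

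**Figure D3:**
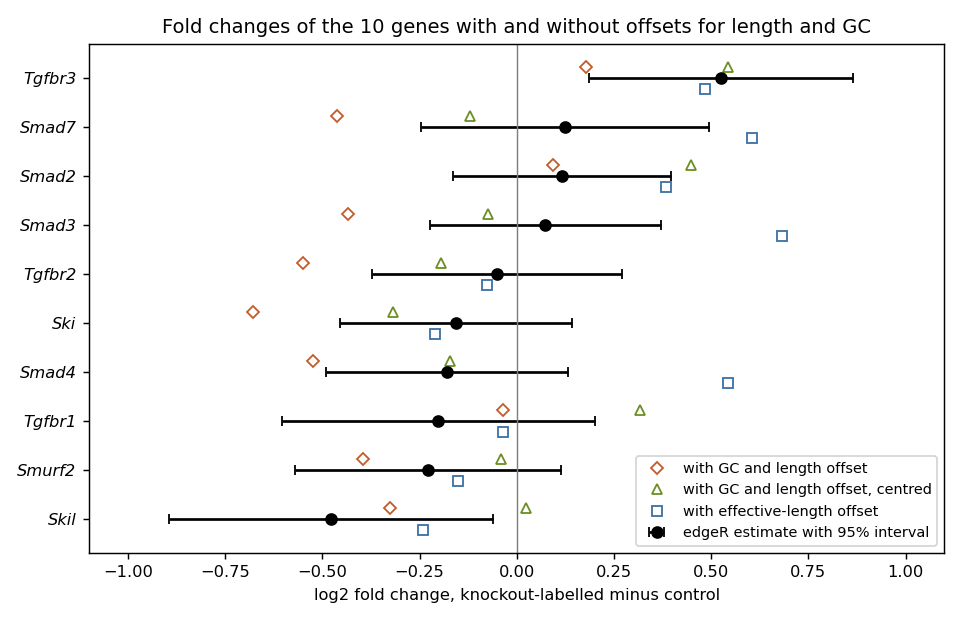
Log2 fold change (knockout-labelled minus control) of the 10 genes. Black points with bars are edgeR estimates with 95% intervals; open symbols are the estimates with a GC and length offset (diamonds), the same offset centred (triangles) and an effective-length offset (squares). The diamonds lie to the left of the triangles for every gene, and the squares of Smad3, Smad4 and Smad7 lie furthest to the right.

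On a scale per length, in TPM summed over each gene's transcripts, Smad4 was the most abundant of the 10 with a mean of 57.4 TPM over the 7 units. Smad7 (45.2 TPM), Tgfbr2 (42.1 TPM), Ski (40.9 TPM), Skil (33.0 TPM), Tgfbr1 (29.8 TPM), Smad3 (27.8 TPM), Smad2 (24.5 TPM) and Smurf2 (24.2 TPM) followed. The place of Smad4 rests on short noncoding transcripts of 430 to 917 bases, with 175 to 1030 reads each over all units. Its full coding transcript averaged 33.7 TPM in the controls and 25.8 TPM in the knockout-labelled units, below Tgfbr2 in each group. The place of Ski rests largely on a noncoding transcript of 4521 bases, with 27542 of the 49740 Ski reads. That transcript averaged 28.6 and 21.1 TPM in the 2 groups, and the main coding Ski transcript 11.9 and 15.1 TPM. The order differed between the groups: Smad7 ranked 4 in the controls (37.1 TPM, behind Ski at 43.6 TPM and Tgfbr2 at 43.3 TPM) and 2 in the knockout-labelled units (55.97 TPM), and Smad3 ranked 8 (22.4 TPM) and 5 (34.9 TPM). The longest Smad3 transcript averaged 15.2 and 14.7 TPM in these groups, and the longest Smad7 transcript 19.9 and 17.0 TPM. Smad3 transcripts of 429 and 466 bases, with 419 and 673 reads over all units, went from 2.91 to 7.84 TPM and from 3.58 to 11.9 TPM. The ranges over units of each pair of neighbours in the order over all 7 units overlapped, except that Tgfbr3, at 5.38 TPM, lay below every value of Smurf2. The level of Smad7 on this scale was 32.6 to 42.5 TPM in the controls and 44.3 to 70.3 TPM in the knockout-labelled units, without overlap, whereas its CPM overlapped. The log2 ratios of Tgfbr1 to Tgfbr2, Smad3 to Smad2, Smad7 to Smad3 and Skil to Ski overlapped between groups, and in 4 exact two-sided permutation tests the smallest p was 0.286 (0.914 after adjustment; the smallest the design allows is 0.0571).

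Beneath the gene totals, the split between transcripts was estimated by the authors' quantification. Of 33 transcripts of the 10 genes with a mean of at least 1 TPM, 1 passed limma on log2(TPM + 1), beside 2.31% of 33274 transcripts. That transcript was a noncoding one of Smad4 (ENSMUST00000129326), of 430 bases and 3 exons, which shares exons 5 and 6 of the full 12-exon coding transcript and has a first exon of 100 bases of its own. It stood at 6.71, 2.09, 8.39 and 4.52 TPM in the controls and 20.4, 24.5 and 22.8 TPM in the knockout-labelled units, a difference of 1.99 ± 0.37 on the log2(TPM + 1) scale (limma adjusted p = 0.03996), and the call was lost in 7 of 10 alternatives. The full coding transcript of Smad4 stood at 33.0, 32.3, 35.2 and 34.4 TPM against 28.0, 30.99 and 18.3 TPM (limma adjusted p = 0.311). A short coding transcript of Smad7 (ENSMUST00000174411), of 769 bases, stood at 10.4, 12.5, 8.61 and 6.64 TPM against 19.7, 25.3 and 20.3 TPM (limma adjusted p = 0.0536). The groups of TPM did not overlap for 11 of the 33, beside 20.1% of all transcripts tested.

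Tgfbr2, Skil and Tgfbr1 each had coding forms whose shares did not overlap between groups. They were chosen after their values were seen, and none passed the test, so the shares are descriptions. One Tgfbr2 form holds an extra exon of 75 bases (25 codons, chr9:116158271-116158345, minus strand), and some Skil forms hold a coding stretch of 138 bases (46 codons, chr3:31113503-31113640, plus strand) that another form (ENSMUST00000118470) lacks. A further Skil form with the stretch is 2904 bases long and differs by more than the stretch. These 2 coding sequences are from GENCODE M21 on GRCm38, 5′ to 3′, with no letters marked. They are shown because the first separates the Tgfbr2 forms and the second the Skil forms of 6717 and 6578 bases.
Tgfbr2 exon: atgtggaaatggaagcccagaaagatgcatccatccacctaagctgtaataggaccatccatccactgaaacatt
Skil stretch: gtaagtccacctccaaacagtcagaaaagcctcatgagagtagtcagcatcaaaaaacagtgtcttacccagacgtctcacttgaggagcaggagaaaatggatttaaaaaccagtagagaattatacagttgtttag

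The form of Tgfbr2 with the 75-base exon stood at 13.3, 12.7, 19.3 and 20.8 TPM in the controls and 6.12, 10.6 and 6.69 TPM in the knockout-labelled units. Its share of Tgfbr2 was 35.8%, 28.9%, 37.0% and 52.1% against 14.1%, 23.2% and 20.7%, so every knockout-labelled unit was below every control. The mean share was 38.4% ± 9.80 (SD, n = 4) against 19.3% ± 4.69 (SD, n = 3). The difference of the transcript was -0.997 on the log2(TPM + 1) scale (limma adjusted p = 0.0952), while the form without the exon overlapped between groups. The 2 sequenced samples of a unit differed in this share by 1.26 to 14.3 percentage points, most in control unit 4.

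The forms of Skil with the coding stretch held 36.0%, 20.5%, 35.7% and 48.4% of the compared Skil transcripts in the controls and 57.1%, 51.4% and 60.9% in the knockout-labelled units. Control unit 4 came nearest to the knockout-labelled units. The 2 sequenced samples of a unit differed in this share by 2.63 to 13.4 percentage points, most in control unit 4, which is more than its distance from knockout-labelled unit 2. The form that lacks the stretch was below every control in each knockout-labelled unit: it stood at 24.8, 19.9, 22.6 and 18.9 TPM against 12.8, 16.1 and 6.87 TPM (limma adjusted p = 0.137), and the forms with it overlapped. Of the forms with the stretch, the one of 6717 bases averaged 8.21 TPM in the controls and 5.51 TPM in the knockout-labelled units. Its share of all Skil TPM overlapped between groups. The one of 2904 bases averaged 4.14 and 9.39 TPM and was listed at 0 in control unit 2.

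**Figure D4:**
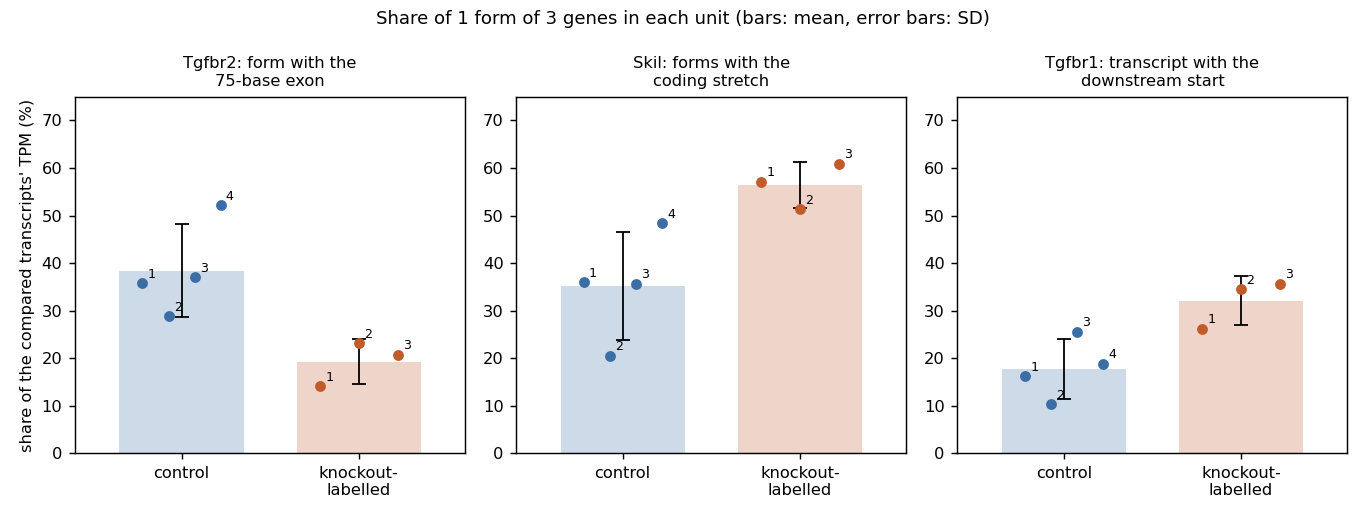
Share of a form among the compared transcripts of its gene (percent of TPM, axis from 0) in each unit. Panels show Tgfbr2 with the 75-base exon, Skil with the coding stretch (forms of 6717 and 2904 bases summed) and Tgfbr1 from the downstream start. Points are units with their number, bars are means and error bars are SD; in each panel the shares of the groups do not overlap.

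For Tgfbr1 the forms differ in their start, their end and their length. The full form runs from base 47353222 to 47414931 of chromosome 4 and is 5756 bases long. A coding transcript of 8 exons (ENSMUST00000107725) runs from base 47386216 to 47411035 and is 1713 bases long. The shares are of whole transcripts, so the part of the start in them was not tested. The downstream form stood at 5.31, 2.61, 7.21 and 6.03 TPM in the controls and 7.71, 11.96 and 7.21 TPM in the knockout-labelled units, where control unit 3 and knockout-labelled unit 3 were equal after rounding. Its share was 17.8% ± 6.31 (SD, n = 4) against 32.1% ± 5.13 (SD, n = 3; limma adjusted p for its level = 0.285), and the 2 sequenced samples of a unit differed by 0.38 to 3.98 percentage points. RefSeq (GRCm38.p6) lists a promoter window at each start. Both are shown, as the 2 regions from which these forms begin, 5′ to 3′ on the plus strand, with capitals on CAGAC or its reverse GTCTG, a core of SMAD-binding elements, and on GGCGC or GCGCC, a GC-rich SMAD-binding core; overlapping matches run together.
Tgfbr1 upstream start, chr4:47352972-47353271: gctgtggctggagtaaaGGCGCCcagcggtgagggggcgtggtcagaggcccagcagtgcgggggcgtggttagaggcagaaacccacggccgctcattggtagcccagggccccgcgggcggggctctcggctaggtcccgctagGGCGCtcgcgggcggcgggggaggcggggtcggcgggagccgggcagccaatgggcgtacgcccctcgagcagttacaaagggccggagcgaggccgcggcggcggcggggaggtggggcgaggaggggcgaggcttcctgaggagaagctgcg
Tgfbr1 downstream start, chr4:47385966-47386265: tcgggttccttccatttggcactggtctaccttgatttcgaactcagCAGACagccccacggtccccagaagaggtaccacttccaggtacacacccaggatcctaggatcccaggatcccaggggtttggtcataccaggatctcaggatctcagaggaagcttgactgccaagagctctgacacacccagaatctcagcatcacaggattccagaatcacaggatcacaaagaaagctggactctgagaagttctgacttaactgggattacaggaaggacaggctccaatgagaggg

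The upstream window is 74.7% GC with 3 GGCGC matches and no CAGAC, and the downstream window holds 1 CAGAC match and no GGCGC. Over 32851 windows of the same length, 49.6% hold CAGAC and 36.9% GGCGC on either strand. The palindrome GTCTAGAC was in 0.213% of all windows and in none of the 6 windows matched to Tgfbr1, Tgfbr2, Smad3, Ski and Smurf2. A match is a description of the letters only.

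Around the 10 genes, 26 of 112 other TGF-beta pathway genes tested passed edgeR's test, 11 as higher and 15 as lower (23.2%, beside 13.6% of all genes tested). The lists were drawn up with earlier results of these data known, so these shares are a description and not a test of the pathway. Among other SMADs, Smad5, which carries BMP signals, fell from 95.7 ± 10.9 CPM (SD, n = 4) to 66.5 ± 6.89 CPM (SD, n = 3; log2 fold change -0.53, edgeR adjusted p = 0.0333), while Smad1 (-0.37) and Smad9 did not pass. Of 12 other receptors and co-receptors, 3 fell and 2 rose. Nrp1, a co-receptor for TGF-beta and semaphorins, fell from 255 ± 35.6 to 101 ± 3.51 CPM (-1.34, edgeR adjusted p = 0.000851), and Bmpr2 and Fkbp1a also fell. Acvrl1, a type I receptor, rose from 6.62 ± 1.098 to 14.005 ± 0.33 CPM, and Eng rose from 0.93 ± 0.55 CPM to 6.53, 5.15 and 29.3 CPM in the knockout-labelled units 1 to 3.

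Of 16 genes for ligands, latency and release, 2 fell: Itgav, the integrin alpha chain that releases TGF-beta, from 87.8 ± 6.75 to 49.4 ± 8.69 CPM (edgeR adjusted p = 0.00850), and its partner Itgb8 from 53.7 ± 21.9 to 18.7 ± 6.40 CPM (adjusted p = 0.0451). Nrros, Thbs1 and Mmp9 rose. Of 15 genes widely used as targets of TGF-beta, 2 fell and 3 rose. Itgae, the integrin alpha E chain, fell from 31.5 ± 3.41 to 13.4 ± 2.62 CPM (edgeR adjusted p = 0.00442), and Nt5e, which encodes CD73, fell from 265 ± 19.9 to 118 ± 1.03 CPM (adjusted p = 0.000814). Id2 rose from 36.2 ± 9.09 to 79.0 ± 15.2 CPM, and Cdkn1a and Gadd45b also rose.

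Of 29 genes for trafficking, ubiquitin ligases and phosphatases, Ndfip1, Rnf11, Wwp1 and Usp9x fell and Nedd4 rose, from 10.8 ± 4.04 CPM to 68.9, 52.9 and 155 CPM in the knockout-labelled units 1 to 3. Among 21 nuclear partners, Cbfb, the partner of RUNX factors, fell from 226 ± 34.2 to 127 ± 24.7 CPM, and Zeb2 rose. Of 16 genes of the non-SMAD branch, Rock1 and Xiap fell. Eng, Nedd4, Zeb2, Mmp9, Thbs1 and Cdkn1a were low in the controls, and each was highest in knockout-labelled unit 3. Over all genes tested, 25.89% were highest in that unit. So were the neutrophil (473, 267 and 1617 CPM), monocyte (685, 355 and 741 CPM) and erythroid sums (259, 76.7 and 2899 CPM). The heat shock and dissociation stress sum was highest there too (2394, 2366 and 3782 CPM). Nrros, Acvrl1 and Gadd45b were also highest in that unit, by a small margin over unit 1 or 2. The part of other cells in the rise of any of these genes was not tested.

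**Figure D5:**
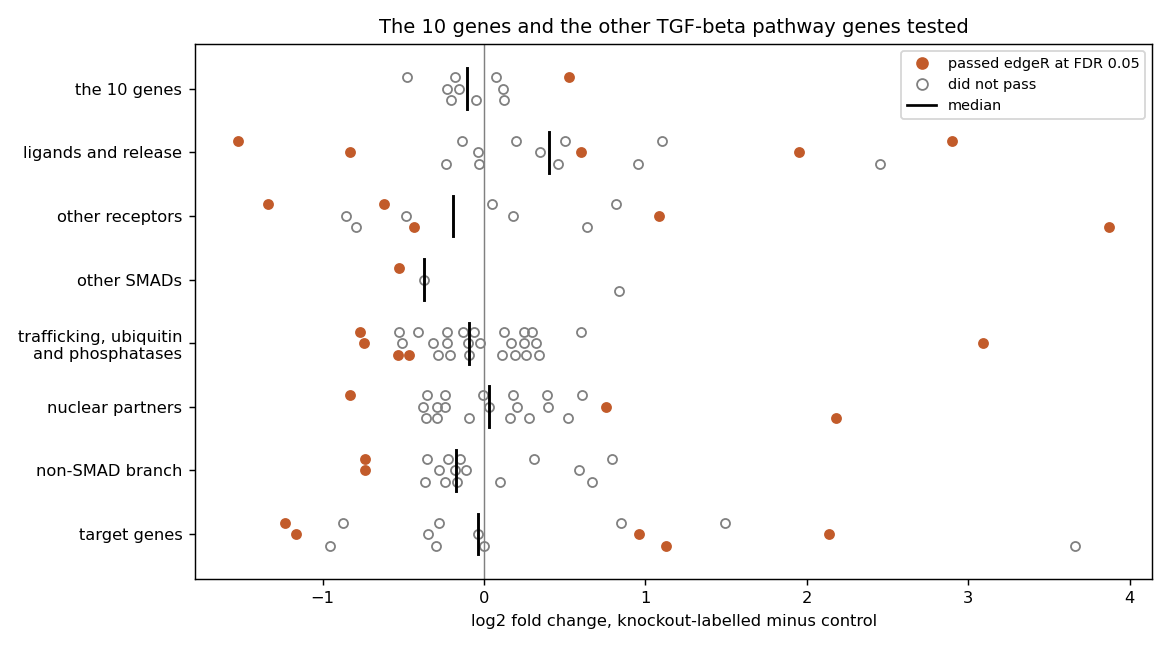
Log2 fold change (knockout-labelled minus control) of the 10 genes and of the other TGF-beta pathway genes tested, by list. Filled points passed edgeR at a false discovery rate of 0.05, open points did not, and black lines are medians; 1 of the 10 genes and 26 of the 112 others passed.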

How the data were processed

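The library kit of the 14 samples was not stranded, per the labels' protocols, so reads of antisense genes cannot be told apart. The deposited tables hold, per transcript, expected counts (estimated by kallisto against GRCm38, per the submitters' processing notes; version not given in the sources used here), plus TPM values, both made by the authors, with lengths and effective lengths as other columns, per the file headers. Of 88198 transcripts, 2079 had no gene in GENCODE M21 and were left out, with 1.17% to 1.28% of a sample's reads.

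Counts were summed over transcripts and over the 2 samples with the same first number in the title, and rounded. The chi-square per degree of freedom was 1.44 to 1.90 between such samples and 12.8 to 202 between units of a group. This left 7 units (4 control, 3 knockout-labelled). edgeR 4.0.16 in R 4.3.3 was used with TMM, filterByExpr, a robust quasi-likelihood fit on group and Benjamini-Hochberg adjustment at 0.05; SEs come from the F statistic. Transcripts with a mean of at least 1 TPM were tested with limma 3.58.1 on log2(TPM + 1). Both steps were tested on simulated data. The 10 genes and all lists were chosen with earlier results of these data known. The rule for naming genes took the 10, Tln1, Foxp3 and up to 3 per pathway list with the smallest adjusted p. It also took the 2 most like each of the 10, of which only some are named. Other pathway genes, the forms and single regulatory T cell markers were named after their values were seen. A gene that this rule takes is not reported here. Alternatives were other scalings, filters and tools (DESeq2 1.42.0, limma-voom), offsets for length and GC (mgcv 1.9.3), 1 part, a replicate block and leaving out each unit.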

Additional observations from a re-analysis of the deposited data

Results flagged for a closer look

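Of 43 groups of 4 control values (the 10 genes and their 33 transcripts), 4 had 1 unit far from the other 3, by Dixon's gap-to-range ratio; chance flags about 1 in 20 groups. All 4 were transcripts of low level. Smad2-207 was at 5.21 TPM in control unit 3, with the next highest at 1.01 TPM. Smad4-205 was at 1.97 TPM in control unit 3 and listed at 0 in the other controls. Smad7-202 was at 4.96 TPM in control unit 3, with the next highest at 0.27 TPM. Skil-205 was at 4.10 TPM in control unit 1 and listed at 0 in the other controls. The CPM of the 10 genes had no such unit.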

How the results depend on the processing

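Over all genes, 2144 passed, against 3546 with the DESeq2 Wald test, 1351 with the centred GC and length offset and 758 to 1905 without 1 unit; the uncentred offset gave 3031. Of the 10 genes 1 passed; this became 0 with DESeq2 size factors, no count filter, limma-voom or protein-coding transcripts only, 2 (Smad4 and Smad7, higher) with the effective-length offset, 2 (Smad4 and Ski, lower) with the GC and length offset, and 0 to 1 without 1 unit. Other pathway genes went from 26 to 16 with the centred offset and to 13 to 23 without 1 unit. Member transcripts went from 1 to 0 with a pseudocount of 0.1 or no TPM filter, to 2 with a pseudocount of 5, and to 0 to 3 without 1 unit, an alternative added after seeing the data. The numbers in the titles did not pair the units (correlations of same-numbered units 0.03, -0.12 and -0.05). With them as a replicate block, 612 genes, 0 of the 10 and 7 pathway genes passed; with the GC and length offset too, 1632, 0 and 16, and with the centred one 281, 0 and 5. The centring was chosen after the uncentred offset's values were seen.

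Signs that turned were these. With the GC and length offset, Smad3 was at -0.43 and Smad7 at -0.46 (-0.05 and -0.08 relative to the shift of all genes). With the replicate block as well they were at -0.38 and -0.37. With the centred offset, Tgfbr1 was at 0.32, Smad3 at -0.073, Smad7 at -0.12 and Skil at 0.025, and with the replicate block as well at 0.33, -0.037, -0.029 and 0.027. Smad4 was at 0.54 with the effective-length offset and Ski at 0.17 with protein-coding transcripts only. Without 1 unit, Tgfbr2 lay between -0.14 and 0.056 (highest without knockout-labelled unit 3), Smad3 between -0.0026 and 0.14 (lowest without control unit 1) and Smad7 between -0.032 and 0.23 (lowest without knockout-labelled unit 2). With CPM in place of TPM, the log2 ratio of Tgfbr1 to Tgfbr2 was -0.16, Smad3 to Smad2 -0.028 and Smad7 to Smad3 0.040. Without 1 unit, the ratio of Tgfbr1 to Tgfbr2 lay between -0.086 and 0.16, Smad7 to Smad3 between -0.37 and 0.030, and Skil to Ski between -0.21 and 0.14. The causes were not tested, beyond the offsets' own construction. The lowest depth behind a value of the 10 genes was 289 reads, for Tgfbr3 in control unit 1.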
